A study of Mus musculus with 15 samples.

Results

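The respiratory complex I genes described here are the 37 of 16042 genes in the deposited table whose symbol starts with Nduf. Their symbols sort them into 10 core genes (Ndufs and Ndufv), 26 accessory genes (Ndufa, Ndufb and Ndufc) and 1 assembly factor gene (Ndufaf1). RNA with poly(A) tails was sequenced from the heart ventricles of 15 mice aged 20 to 22 weeks, in 5 groups of 3 mice. Control mice had the MHCrtTA transgene alone, a doxycycline-dependent activator under the alpha-myosin heavy chain promoter, which is active in heart muscle cells. The other 4 groups, MHCrtTA/TRECUGBP1, also had a transgene for Flag-tagged human Celf1 (CUGBP1), an RNA-binding protein that acts on splicing and mRNA decay, behind a promoter that the activator switches on. All mice, controls included, were given doxycycline at 2 g/kg in food after 2 to 3 h without food. Controls were taken after 72 h, and induced mice after 12, 24 or 72 h or 7 days. The 12 h, 24 h and 7 day groups therefore differ from control in the time on doxycycline as well as in the transgene. Mice are called by the numbers in the labels, and values are given in the order A3250, A3259 and A3280 (control), A3258, A3252 and A3276 (12 h), A3254, A3277 and A3262 (24 h), A3278, A3281 and A3264 (72 h), and A3345, A3283 and A3269 (7 days).

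Complex I is the entry enzyme of the mitochondrial respiratory chain. It takes electrons from NADH, passes them along a flavin and a row of iron-sulphur clusters to ubiquinone, and pumps protons across the inner membrane. Its matrix arm holds the flavin, the clusters and the quinone site, and its membrane arm moves the protons. Core subunits are shared with bacteria, accessory subunits surround and stabilise them, and assembly factors help to build the enzyme without staying in it. Heart muscle is rich in mitochondria and draws most of its ATP from this chain. The membrane arm's core subunits are encoded in mitochondrial DNA and are not analysed here. Of the rule's core genes, Ndufs4, Ndufs5 and Ndufs6 encode accessory subunits. Ndufa4 is now assigned to complex IV, Ndufa4l2 is its paralog, and Ndufab1 is the mitochondrial acyl carrier protein.

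RNA for the complex I genes was near the control level at 12 and 24 h and far lower at 7 days. The summed level of the 37 genes, as RPKM (mapped reads scaled to gene length and to the size of the library), was 14130, 13060 and 14000 in the controls. It was 15860, 11840 and 12410 at 12 h, and 14500, 14030 and 13790 at 24 h. Both of these groups overlapped the controls. At 72 h it was 14360 in A3278, 9380 in A3281 and 10800 in A3264. At 7 days it was 5776, 5149 and 4259, below every other mouse, and the mean was 36.9% of the control mean. All 3 mice at 7 days lay below all of the 12 other mice for 30 of the 37 genes (81.1%), against 12.4% of the 10868 genes tested. The exceptions were Ndufa1, Ndufa2, Ndufa3, Ndufa4l2, Ndufb6, Ndufc2 and Ndufs5.

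**Figure D1:**
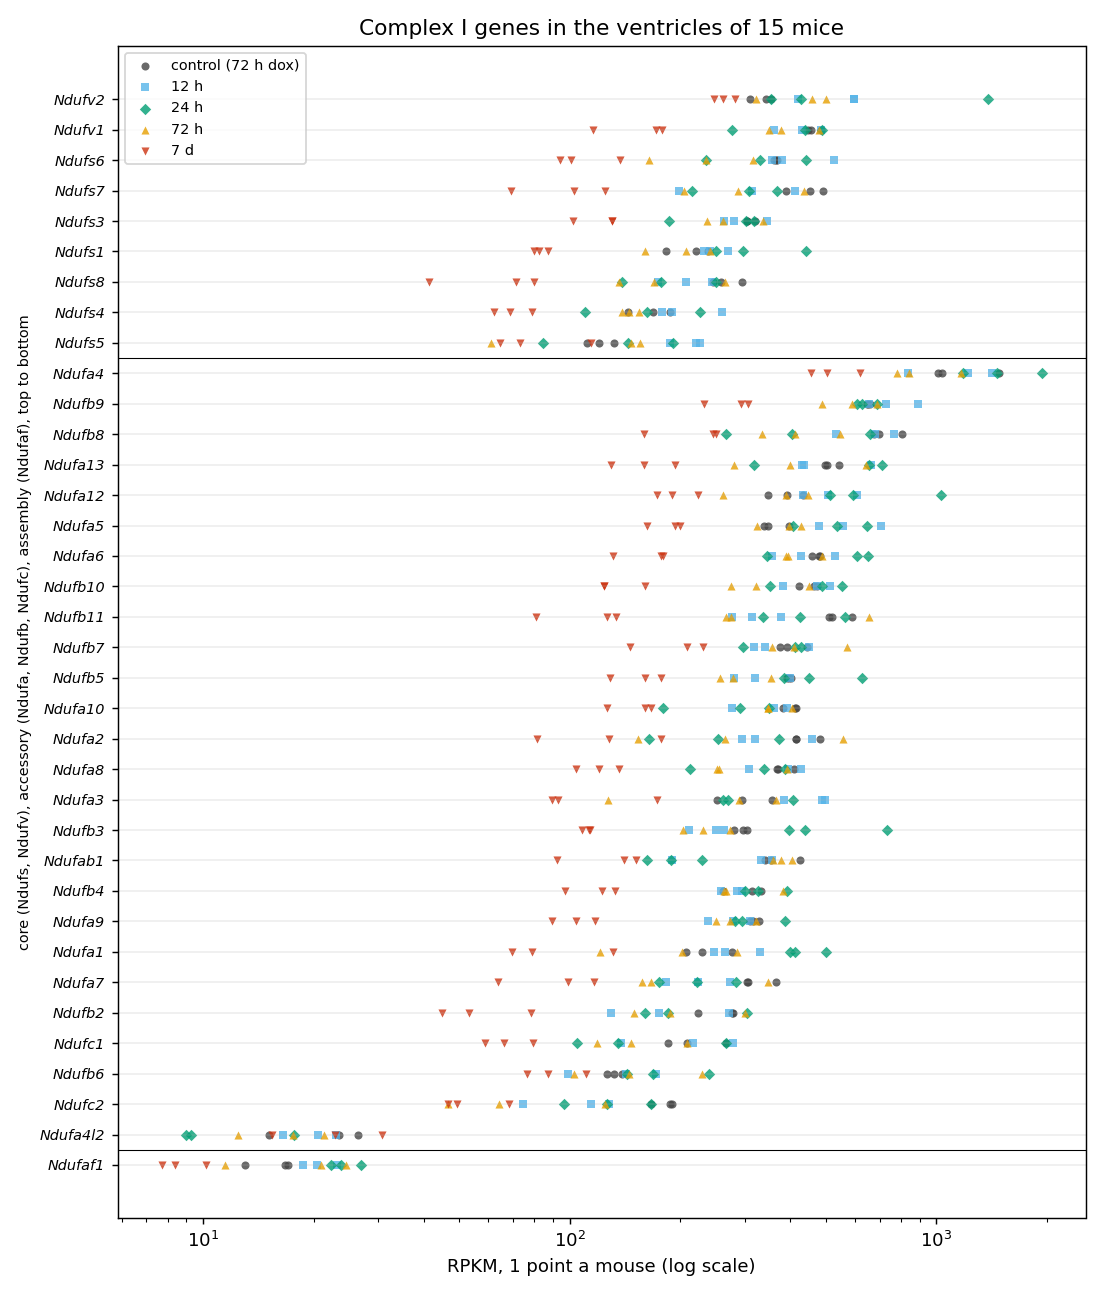
RPKM of the complex I genes (log scale, 1 of the 37 not shown), 1 point for each of the 15 mice, colour and shape by group, genes ordered by class and by mean level. The mice labelled 7 days lie below all 12 other mice for 30 of the 37 genes.

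The genes differ in level far more than the groups do. Mean RPKM over the 15 mice ran from 17.7 for Ndufaf1 and 18.8 for Ndufa4l2 to 1064 for Ndufa4. All 37 passed the filter of a mean RPKM of at least 1, and their median was 292 against 9.06 for all genes tested. Their gene models are short, with a median length of 960 nt against 2858 nt. They lie on 15 chromosomes with at most 4 on one, so they share no single locus. Exons of Ndufa2, Ndufa13, Ndufa4l2, Ndufb2, Ndufb5, Ndufb6, Ndufb11, Ndufs1 and Ndufs3 overlap those of another gene. Those of Ndufb8 overlap another entry of the same name and strand. Ndufa12, Ndufab1, Ndufb4, Ndufs5 and Ndufs6 have near-identical copies or pseudogenes, which were not examined in these data. Reads of all these genes may be split or shared.

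The checks on the libraries bear on how small differences can be read. Celf1 RNA (Cugbp1 in the table) rose against control, with log2 differences of 3.08 ± 0.20 for the 12 h mice, 3.40 ± 0.20 for the 24 h mice and 2.29 ± 0.20 for the 72 h mice (limma adjusted p = 8.7e-08, 3.5e-08 and 1.8e-06). In the mice labelled 7 days it was 32.8 ± 4.50 RPKM (SD, n = 3) against 34.4 ± 1.48 in controls, a log2 difference of -0.08 ± 0.20 (limma adjusted p = 0.771; exact two-sided permutation p = 0.5, where 0.1 is the smallest that 3 against 3 mice can give). The 7 day label therefore gives the time on doxycycline, with Celf1 RNA at the control level. Depth could be determined from the steps between low values in 7 of 20 columns and was 16.6 to 51.6 M reads. For the 5 mice with 2 columns, log2(RPKM + 1) of the second minus the first was compared. The median over the 37 genes was 0.09 in A3262, -0.11 in A3281, 0.35 in A3264, -0.12 in A3345 and 0.21 in A3283. The medians of all genes tested were 0.05, -0.05, -0.11, -0.12 and -0.19. The median of the 37 genes can thus differ by 0.35 between 2 columns of the same mouse. Each column of the table has 1 of 9 header codes of unstated meaning. A3264 and A3283 have the same 2 codes. In the second of these, 30 of the 37 genes were higher in A3264 and 31 in A3283, while the medians of all genes tested were lower. The 3 controls share a code with only 1 other mouse, A3278 at 72 h, and the codes at 24 h occur in no other group. Where the code is a term in the fit, differences from control therefore rest on A3278 as the only link to the other codes. Differences below are on the scale of log2(RPKM + 1), with the standard error of 1 limma fit of all 15 mice, and a gene passed at a Benjamini-Hochberg adjusted p under 0.05 over all genes tested.

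The stretches below show what lies upstream of genes that fell together at 7 days, 1 for each of 5 factor motifs known from respiratory chain or general promoters. The gene shown is the one with the smallest 7 day p among those whose match lies wholly before the start. Promoters, 250 bases before to 50 bases after the start, were matched in RefSeq for 32 of the 37 genes (GRCm38.p6), and both strands were searched. Each line is 60 bases 5′ to 3′ on the gene's strand, with the match in capitals. In the order of the lines, the matches begin at -8, -27, -99, -55 and -99 from the gene start.
Ndufa8, NRF1 core, chr2:36049339-36049398, minus strand: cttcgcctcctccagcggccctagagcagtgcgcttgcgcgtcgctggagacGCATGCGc
Ndufs3, GABP/ETS core, chr2:90904722-90904781, minus strand: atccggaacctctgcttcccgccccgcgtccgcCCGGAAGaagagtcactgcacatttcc
Ndufa7, YY1 core, chr17:33824447-33824506, plus strand: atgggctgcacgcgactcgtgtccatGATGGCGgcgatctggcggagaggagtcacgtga
Ndufb4, ERR core, chr16:37654390-37654449, minus strand: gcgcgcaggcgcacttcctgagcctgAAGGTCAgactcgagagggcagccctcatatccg
Ndufs7, TATA box, chr10:80249323-80249382, plus strand: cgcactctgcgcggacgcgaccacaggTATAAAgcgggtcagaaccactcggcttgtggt

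The NRF1 core GCATGCG was in 2 of the 32 promoters (Ndufa6 and Ndufa8), or 6.25%, against 6.63% of the 8707 promoters of genes tested. The GABP/ETS core CCGGAAG was in 5, or 15.6%, against 18.7%. The YY1 core GATGGCG was in 6 (Ndufa7, Ndufa9, Ndufc1, Ndufs4, Ndufs6 and Ndufs7), or 18.8%, against 6.87%. The ERR core AAGGTCA was in 3 (Ndufb2, Ndufb4 and Ndufs5), or 9.38%, against 3.02%, and the TATA box TATAAA was in 4, or 12.5%, against 7.4%. Matches of different motifs shared a base in 0 of the 32 promoters. A match was counted anywhere in the window on either strand. These letters describe the window only, and whether any match is a working site was not tested.

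In the mice labelled 7 days, whose Celf1 RNA was at the control level, 33 of the 37 complex I genes fell against control and 0 rose by limma. Of all genes tested 54.8% passed in either direction, 28.2% lower and 26.7% higher. The median difference of the 37 was -1.41, against -0.03 for all genes tested. The 7 day and control mice did not overlap, with 7 days lower, for 35 of the 37, against 34.5% of all genes tested. The 4 that did not pass were Ndufs5, Ndufb6, Ndufv2 and Ndufa4l2.

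In the core class 8 of 10 genes fell, with a median of -1.48, where 28.2% of all genes tested passed lower. Ndufs8, which carries iron-sulphur clusters next to the quinone site, was 246, 259 and 296 RPKM in controls and 80.1, 71.6 and 41.3 at 7 days. Between these it was 244, 207 and 174 at 12 h, 250, 177 and 139 at 24 h, and 265, 136 and 169 at 72 h. Its 7 day values did not overlap those of any other group, and the difference was -2.09 ± 0.28 (limma adjusted p = 8.4e-06). Ndufs7, which holds the last cluster before ubiquinone, kept 22.2% of the control mean, with a difference of -2.19 ± 0.30. With the column code as a term the differences were -1.26 for Ndufs8 and -1.32 for Ndufs7. Among the genes of the NADH-oxidising end, Ndufv1, which binds the flavin, fell by 1.59 ± 0.23 on the log2 scale, and Ndufs1, which holds several clusters, fell by 1.35 ± 0.21.

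Ndufv2 encodes an iron-sulphur subunit beside Ndufv1. Its RPKM was 354, 344 and 311 in controls, 598, 421 and 596 at 12 h, 429, 354 and 1380 at 24 h, 321, 459 and 499 at 72 h, and 248, 282 and 263 at 7 days. The high value at 24 h is from A3262, where it was 1346 and 1415 in the mouse's 2 columns. All 3 mice at 7 days were below all others, but the difference was -0.35 ± 0.35 (limma adjusted p = 0.42), and the spread of the 5 groups enters that error. The fit with the column code as a term leaves out the 24 h mice, A3262 among them. There the Ndufv2 difference was -1.06 ± 0.29 (limma adjusted p = 0.014), beside -1.16 ± 0.26 for Ndufv1 (limma adjusted p = 0.0047). In the comparisons of 7 day columns with 12 or 72 h columns of the same code, Ndufv2 differed by -1.46 to -0.81 and Ndufv1 by -1.48 to -0.97. Ndufs5, a small disulphide-bonded subunit of the membrane arm and the core-class gene with the lowest mean level, was 120, 112 and 132 RPKM in controls and 115, 73.2 and 64.6 at 7 days. It was 226, 221 and 188 at 12 h, 144, 84.5 and 192 at 24 h, and 147, 61.1 and 155 at 72 h. Its mice labelled 7 days overlapped the controls, and the difference was -0.57 ± 0.33 (limma adjusted p = 0.15). The 2 columns of the 7 day mouse A3283 gave 35.9 and 110 RPKM for this gene, a wider gap than that between the group means.

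In the accessory class 24 of 26 genes fell at 7 days, with a median of -1.48, where 28.2% of all genes tested passed lower. Ndufb11, an accessory subunit of the membrane arm, had the largest fall of the 37 in the fit without the column code. It lies on the minus strand of chromosome X (mm9, 20192452 to 20194745, 3 exons). It was 520, 509 and 590 RPKM in controls, 377, 278 and 314 at 12 h, 424, 564 and 337 at 24 h, 654, 266 and 276 at 72 h, and 133, 126 and 81.1 at 7 days. The value of 337 is the mean of 176 and 498 in the 2 columns of A3262. The 7 day values lay below all others, at 21.1% of the control mean, and the difference was -2.27 ± 0.30 (limma adjusted p = 7.4e-06). With the column code as a term in the fit it was -0.98 ± 0.27 (limma adjusted p = 0.015). With that term the largest fall of the 37 was that of Ndufs1, -1.79 ± 0.25. Exons of Ndufb11 overlap those of Rbm10 on the other strand, and without strand information reads from the overlap cannot be told apart.

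Ndufa9, an accessory subunit at the joint of the arms, had the smallest p of the 37. It lies on the minus strand of chromosome 6 (mm9, 126771881 to 126799162, 11 exons). Its RPKM was 328, 310 and 316 in controls, 310, 279 and 238 at 12 h, 387, 295 and 282 at 24 h, 323, 273 and 251 at 72 h, and 104, 117 and 89.2 at 7 days. The first 4 groups overlapped and the last stood apart, with a 7 day difference of -1.62 ± 0.18 (limma adjusted p = 1.1e-06).

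Ndufb10 and Ndufa8 are disulphide-bonded subunits on the intermembrane face of the membrane arm. Ndufb10 was 463, 472 and 421 RPKM in controls, 514, 473 and 381 at 12 h, 487, 552 and 352 at 24 h, 450, 276 and 322 at 72 h, and 160, 124 and 124 at 7 days. Ndufa8 was 370, 367 and 410 in controls, 426, 393 and 309 at 12 h, 387, 338 and 213 at 24 h, 392, 253 and 255 at 72 h, and 120, 136 and 104 at 7 days. For both, 7 days lay below every other mouse, and the differences were -1.73 ± 0.21 and -1.67 ± 0.23 (limma adjusted p = 3.8e-06 and 1.2e-05).

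Ndufa4, the most abundant of the 37, was 1484, 1009 and 1036 RPKM in controls and 618, 456 and 504 at 7 days, after 1421, 839 and 1224 at 12 h, 1180, 1937 and 1468 at 24 h, and 1166, 782 and 844 at 72 h. The mice labelled 7 days were below all others, and the difference was -1.15 ± 0.25 (limma adjusted p = 0.00089). With the column code as a term it was -0.77 and did not pass (limma adjusted p = 0.071). Its paralog Ndufa4l2, known as a hypoxia-induced gene, was 15.2, 23.5 and 26.5 RPKM in controls, 20.6, 23.0 and 16.5 at 12 h, 17.7, 8.97 and 9.26 at 24 h, 21.4, 12.4 and 17.6 at 72 h, and 22.8, 15.4 and 30.7 at 7 days. Its groups overlapped at 7 days, the difference was 0.06 ± 0.29 (limma adjusted p = 0.88), and it was the 1 gene of the 37 that did not pass the limma F test over the 5 groups, which 71.3% of all genes tested passed. Its columns are also the least precise of the 37, with 3.81 and 31.3 RPKM in the 2 columns of A3264, and its exons overlap those of Shmt2. Ndufb6, a membrane arm subunit, was at 132, 126 and 139 RPKM in controls and 111, 87.4 and 76.3 at 7 days. These do not overlap, but the difference of -0.55 ± 0.27 did not pass (limma adjusted p = 0.098).

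Ndufaf1, the assembly factor, works with Ecsit, Acad9 and Tmem126b on the membrane arm. It was 16.8, 17.0 and 13.0 RPKM in controls, 23.1, 18.7 and 20.5 at 12 h, 22.4, 23.8 and 26.9 at 24 h, 11.5, 24.6 and 21.0 at 72 h, and 10.2, 8.38 and 7.71 at 7 days. The 12 and 24 h values lay above the controls without passing the test, and the 7 day values lay below all others. Its 7 day difference was -0.77 ± 0.22 (limma adjusted p = 0.0077), and -1.70 ± 0.32 with the column code as a term (limma adjusted p = 0.0014). The value with the term rests on A3278, the lowest of the 72 h mice for this gene.

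**Figure D2:**
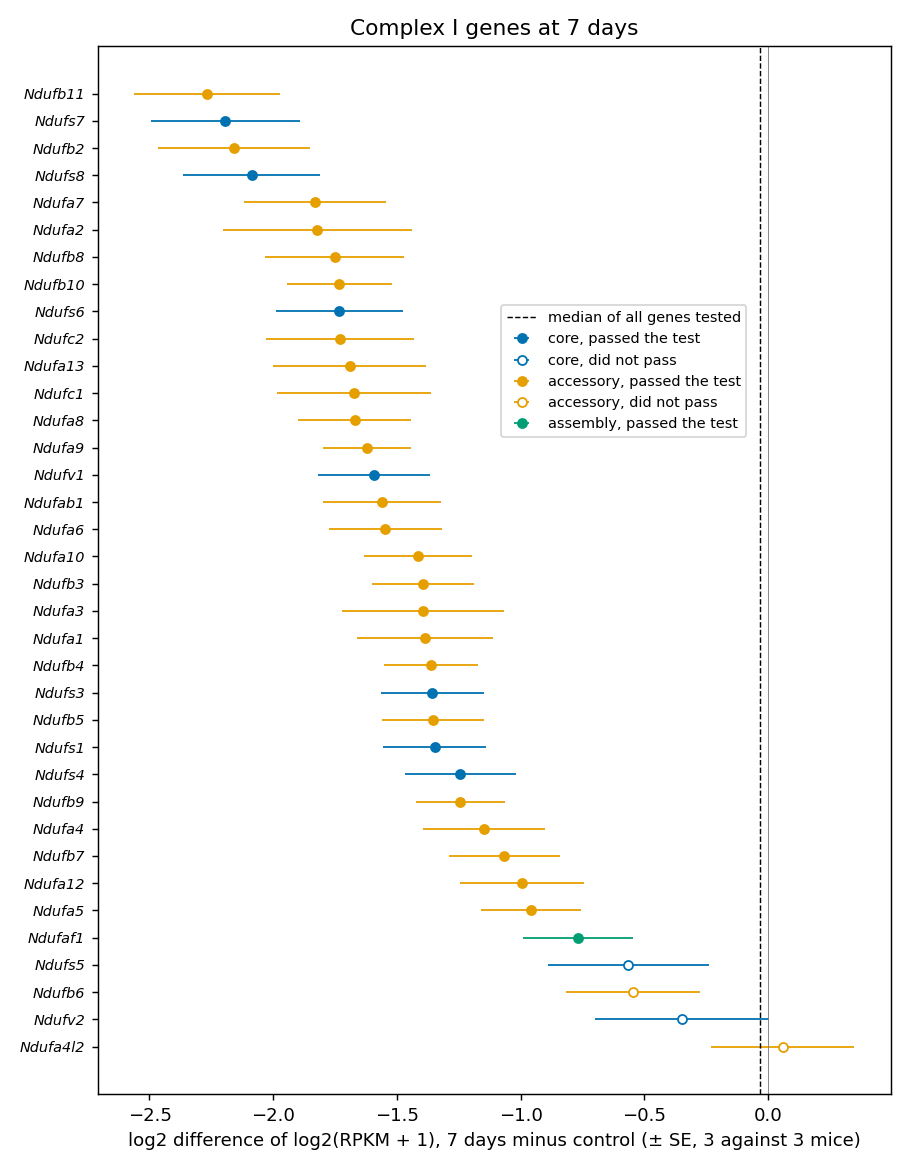
Difference of log2(RPKM + 1) between 7 day and control mice (3 against 3) for the complex I genes (1 of the 37 not shown), with the limma standard error, coloured by class, filled where the gene passed the test. The values run from -2.27 for Ndufb11 to 0.06 for Ndufa4l2, and the dashed line is the median of all genes tested, -0.03.

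By place in the enzyme, 14 of 15 matrix arm genes fell at 7 days, with a median of -1.59. Of the membrane arm genes 16 of 18 fell, with a median of -1.40. Among all genes tested 28.2% passed lower. Of the 7 genes of subunits conserved from bacteria 6 fell, all but Ndufv2, also with a median of -1.59. Summed RPKM at 7 days was 36.4% of control for the matrix arm and 35.7% for the membrane arm. Across the 37 genes Spearman's rho of the 7 day difference was -0.05 with gene model length, -0.30 with GC content and -0.10 with mean level. These are descriptions over genes of the same libraries.

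Most of the difference from control arose between 72 h and 7 days. Against 72 h 33 of the 37 genes fell by limma and 0 rose, where 44.9% of all genes tested passed, 22.3% lower and 22.6% higher, and the median was -1.18 against -0.02 for all genes. Ndufv2, Ndufs5, Ndufc2 and Ndufa4l2 did not pass. The 32 genes that fell against both control and 72 h share the mice labelled 7 days between the comparisons. Ndufa9 had the smallest p again, with a difference of -1.44 ± 0.18 (limma adjusted p = 5.6e-06).

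Columns with the same header code were also compared, a choice made after seeing the data. For 7 days against 72 h the median difference of the 37 genes was -1.12 in the first of 3 such codes (A3283 against A3264 and A3281), with 36 lower. In the second it was -1.33 (A3269 and A3283 against A3264), with 37 lower. In the third it was -0.80 (A3345 against A3281), with 31 lower. For 7 days against 12 h it was -1.40 (A3345 against A3258) and -1.32 (A3269 and A3283 against A3276) in 2 codes, with 36 of 37 lower in each. Every 7 day column lay below every 72 h column for 94.6%, 100% and 83.8% of the 37 genes. The shares of all genes tested were 34.7%, 38.8% and 45.3%. Against 12 h columns it was 97.3% in both codes, where 29.6% and 30% of all genes tested did so. The medians of all genes tested in these comparisons were 0.05 to 0.39. Each comparison had 1 or 2 columns a side, and the same mice recur among them, so they are not separate replications. No 7 day column has the controls' code. With the code as a term, and without the 24 h mice, 34 of the 37 fell by limma against 72 h (background 20.3%), including all 33 of the fit without it. Against control 25 fell (background 9.84%), 24 of them the same genes. These differences from control rest on A3278, the only mouse that links the controls' code to the others. Ndufv2 passed only with the term, and Ndufa1, Ndufa2, Ndufa3, Ndufa4, Ndufa7, Ndufa12, Ndufa13, Ndufb7 and Ndufc2 passed only without it.

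**Figure D3:**
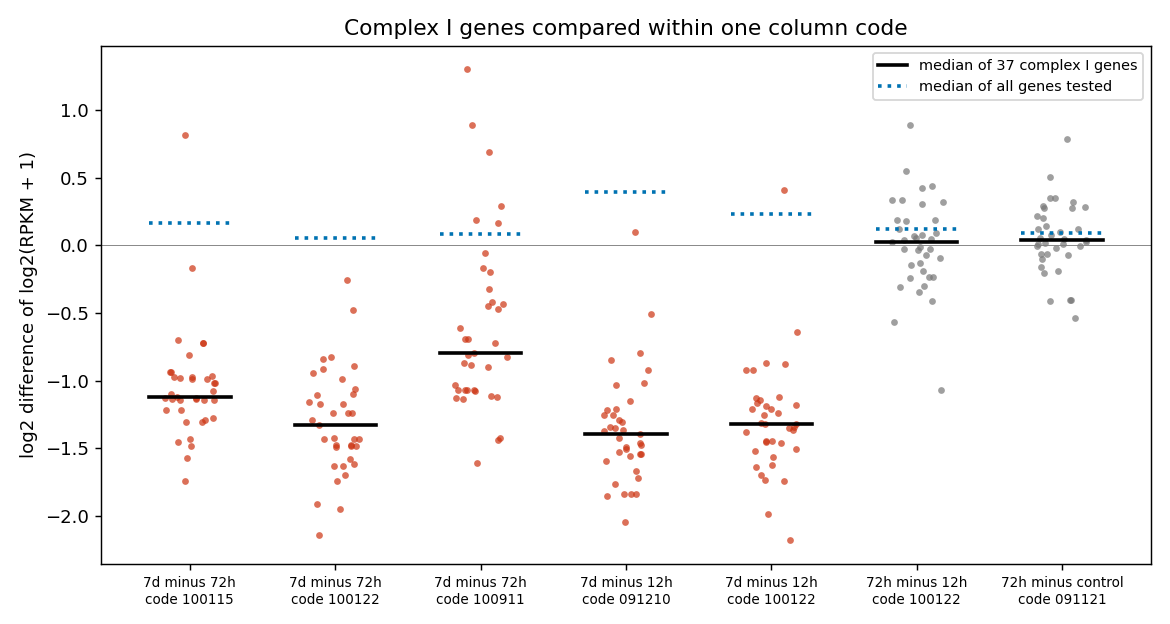
Difference of log2(RPKM + 1) between columns that share a header code, 1 point per complex I gene, with the median of the 37 genes (black bar) and of all genes tested (blue dotted bar). In the 5 comparisons of 7 day columns the medians lie between -1.40 and -0.80, and in the 2 without a 7 day column they are 0.03 and 0.04. Some mice appear in more than 1 comparison.

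At 72 h Ndufc2 fell and 36 of the 37 genes did not pass, where 11.6% of all genes tested passed, 5.22% lower and 6.39% higher. Ndufc2, a membrane arm subunit, was 190, 167 and 188 RPKM in controls, 128, 74.5 and 115 at 12 h, 96.3, 166 and 126 at 24 h, 125, 46.6 and 64.3 at 72 h, and 68.5, 49.2 and 46.5 at 7 days. All mice of the 4 induced groups lay below the lowest control, and the 72 and 7 day groups overlapped. The differences were -1.32 ± 0.30 at 72 h (limma adjusted p = 0.0097) and -1.73 ± 0.30 at 7 days (limma adjusted p = 0.00013). With the column code as a term they were -0.54 (limma adjusted p = 0.28) and -0.46 (limma adjusted p = 0.28). Without A3281 the 72 h difference was -1.01 and did not pass.

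The 37 genes were not alike among the mice at 72 h. The median difference of the group was -0.30, against -0.10 for all genes tested. After quantile normalization it was -0.05 against -0.06. Median-of-ratios scaling gave -0.21 against -0.02, and a GC correction gave -0.14 against -0.02. A3278, the mouse with the controls' code, had a median difference of 0.04 from the controls, with 14 of 37 genes lower. It lay below all controls for 21.6% of the 37 genes, against 27.3% of all genes tested. Without A3278 there were 7 genes lower and 1 higher in place of 1 lower, and the share of all genes tested is not given here for that fit. The other mice of that group had no column with the controls' code, so code and time cannot be told apart for them.

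At 24 h 3 of the 37 genes rose, Ndufa1, Ndufa12 and Ndufb3, and 1 fell, Ndufab1, by limma, where 16.0% of all genes tested passed, 5.38% higher and 10.6% lower. The median of the 37 was -0.06, against -0.19 for all genes tested, and 0.15 with median-of-ratios scaling, which brought all genes to -0.01. With that scaling 6 genes passed higher and 1 lower, where 8.5% of all genes tested passed higher and 6.85% lower. Ndufa1, an X-linked subunit of the membrane arm, was 277, 208 and 229 RPKM in controls, 330, 247 and 265 at 12 h, 501, 411 and 398 at 24 h, 285, 121 and 202 at 72 h, and 131, 69.7 and 78.8 at 7 days. The 24 h mice were the highest of all 15, with a difference of 0.88 ± 0.28 from control (limma adjusted p = 0.040). It did not pass when any 1 of the control or 24 h mice was left out. The 2 columns of the 72 h mouse A3264 gave 104.5 and 299.8 RPKM for this gene.

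Ndufb3, a membrane arm subunit, was 305, 281 and 297 RPKM in controls, 264, 251 and 211 at 12 h, 396, 437 and 736 at 24 h, 274, 231 and 204 at 72 h, and 112, 113 and 108 at 7 days. All 3 mice at 24 h were above all others, with a difference of 0.77 ± 0.21 (limma adjusted p = 0.022). It was also the 1 gene of the 37 that rose from 12 to 24 h, by 1.06 ± 0.21 (limma adjusted p = 0.012), where 3.92% of all genes tested passed, 3.35% higher and 0.57% lower. Without A3262 the difference from control was 0.50 and did not pass. Ndufa12, a matrix arm subunit related to an assembly factor, was 433, 346 and 392 RPKM in controls, 608, 433 and 505 at 12 h, 514, 592 and 1027 at 24 h, 447, 261 and 388 at 72 h, and 225, 190 and 173 at 7 days. A3262 had the highest value, the difference was 0.80 ± 0.25 (limma adjusted p = 0.040), and without that mouse it was 0.50 and did not pass.

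Ndufab1, the acyl carrier protein that mitochondrial fatty acid synthesis also uses, was 353, 342 and 425 RPKM in controls, 357, 190 and 332 at 12 h, 230, 189 and 163 at 24 h, 403, 358 and 377 at 72 h, and 141, 151 and 92.5 at 7 days. It was low at 24 h, back among the controls at 72 h and lowest at 7 days. The 24 h difference was -0.95 ± 0.24 (limma adjusted p = 0.019), the step to 72 h was 0.98 ± 0.24 (limma adjusted p = 0.015), and the 7 day difference was -1.56 ± 0.24 (limma adjusted p = 3.6e-05). Without A3259, A3280 or A3262 it did not pass at 24 h, with values of -1.01, -0.85 and -0.83.

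From 24 to 72 h 1 gene rose, Ndufab1, and 5 fell, by limma, where 10.2% of all genes tested passed, 7.67% higher and 2.57% lower. Those that fell were Ndufb3, Ndufa1, Ndufa12, Ndufb5 and Ndufs1, by 0.67 to 1.18 on the log2 scale. Without A3262, 2 genes passed in place of 6. The codes of the 24 h mice occur nowhere else, so code and time cannot be told apart in any comparison with them.

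At 12 h Ndufa5 rose and 36 of the 37 genes did not pass, where 13.2% of all genes tested passed, 0.524% higher and 12.7% lower. Ndufa5, a matrix arm accessory subunit, was 396, 338 and 347 RPKM in controls, 709, 479 and 556 at 12 h, 534, 647 and 406 at 24 h, 397, 324 and 427 at 72 h, and 199, 194 and 162 at 7 days. The 12 and 24 h mice lay above all controls and the mice labelled 7 days below all others. The 12 h difference was 0.67 ± 0.20 (limma adjusted p = 0.039), and with the column code as a term it was 0.60 and did not pass. It passed without A3252 but not when any other control or 12 h mouse was left out. The 7 day difference was -0.96 ± 0.20 (limma adjusted p = 0.00072). The largest rise at 12 h was that of Ndufs5, 0.80 ± 0.33, and the largest fall that of Ndufc2, -0.81 ± 0.30, neither of which passed (limma adjusted p = 0.099 and 0.074).

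The median of the 37 genes at 12 h was -0.10, against -0.30 for all genes tested. Median-of-ratios scaling moved all genes to 0.01 and the 37 to 0.26, so the direction of the group at 12 h depends on the scaling. At 7 days the same scaling gave medians of 0.03 and -1.35, with 33 genes lower, where 27.95% of all genes tested passed lower.

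Most other genes for building and supplying the enzyme were lower at 7 days as well. Among all genes tested 28.2% passed lower and 26.7% higher. Of 14 assembly and related genes without the Nduf symbol, 10 fell and 0 rose, with a median of -0.98. Ecsit, a partner of Ndufaf1, was 69.1, 71.5 and 73.4 RPKM in controls and 31.1, 30.4 and 24.1 at 7 days, with no overlap and a difference of -1.30 ± 0.21. Bcs1l, an assembly factor of complex III, Aifm1, an import partner, Tmem70, a complex V and complex I factor, and Foxred1, a complex I factor, had the smallest p, with differences of -1.79, -1.08, -1.18 and -1.16. Of the 6 rows whose current RefSeq symbol starts with Nduf, a list made after seeing the data, 3 fell, among them 1500032D16Rik (Ndufv3, beside the flavin) with -1.60 ± 0.25. The others are assembly factor genes. Ndufaf3 and Ndufaf6 fell, with -1.28 and -1.07. Ndufaf5, Ndufaf7 and Ndufaf4 did not pass, with -0.45, -0.25 and -0.12. Ndufaf5 is also among the 14 genes above.

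Of 10 genes that feed or drain the quinone and NADH pools 10 fell at 7 days, with a median of -1.51. Among all genes tested 28.2% passed lower and 26.7% higher. Coq9, for ubiquinone synthesis, was 333, 372 and 413 RPKM in controls and 61.7, 56.8 and 42.0 at 7 days, far apart, with a difference of -2.79 ± 0.20. Etfa and Etfb, the electron carrier of fatty acid oxidation, fell by 2.00 ± 0.16 and 1.82 ± 0.23 on the log2 scale. Of 40 genes of complexes II to V 37 fell and 1 rose, with a median of -1.60, and their summed RPKM at 7 days was 35.3% of control, beside 36.9% for the complex I genes. The gene that rose was Uqcrb of complex III, with 0.93 ± 0.34, at 244 RPKM in A3278, which has the controls' code, and at 413 to 935 RPKM in the other induced mice.

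Of 14 transcription regulators of respiratory chain genes 7 fell at 7 days and 0 rose, with a median of -0.50. Among all genes tested 28.2% passed lower and 26.7% higher. The oestrogen-related receptors fell, Esrra by 1.61 ± 0.23, Esrrb by 1.77 ± 0.18 and Esrrg by 1.68 ± 0.17, and so did the fatty acid sensor Ppara, by 1.58 ± 0.26, all on the log2 scale. Nrf1 had a difference of 0.01 ± 0.22 (limma adjusted p = 0.99), and Gabpa one of 0.40 ± 0.19 (limma adjusted p = 0.083).

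Markers of cell types moved strongly at 7 days beside these genes. Among all genes tested 28.2% passed lower and 26.7% higher. Of 9 cardiomyocyte markers 8 fell, with a median of -2.23 over the 9, and the summed RPKM of the 9 was 45920 to 47590 in controls and 11470 to 12870 at 7 days. Ryr2 did not pass, with a difference of 0.37 ± 0.22 (limma adjusted p = 0.17). It was 60.3 to 80.4 RPKM in controls and 81.5 to 109 at 7 days, higher without overlap. All 5 macrophage markers tested rose, with a sum of 21.6 to 27.0 RPKM in controls and 212 to 279 at 7 days, and 6 of 7 fibroblast markers rose, with sums of 510 to 591 and 1978 to 2653. All 3 neutrophil markers tested rose, and the sums over 4 such markers were 0.62 to 2.56 and 21.4 to 30.7. Of 6 endothelial markers 4 fell, with sums of 199 to 216 and 146 to 175. For mural cells 3 of 5 rose and 1 fell, with sums of 179 to 250 and 223 to 299. Both erythroid markers fell, with sums of 808 to 1262 and 37.3 to 296. Of 4 atrial markers 1 rose (Nppa) and 1 fell, with sums of 105 to 119 and 615 to 1279, and the 1 adipocyte marker tested did not pass, with sums over 3 such markers of 628 to 782 and 545 to 797. No marker in these lists was at 0 in all mice. The cardiomyocyte sum at 72 h was 68.5% of control, and that of the complex I genes 83.8%. In whole ventricle, fewer cardiomyocytes and less of these RNAs in each cardiomyocyte cannot be told apart, and the part of these markers in the 7 day result was not tested.

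**Figure D4:**
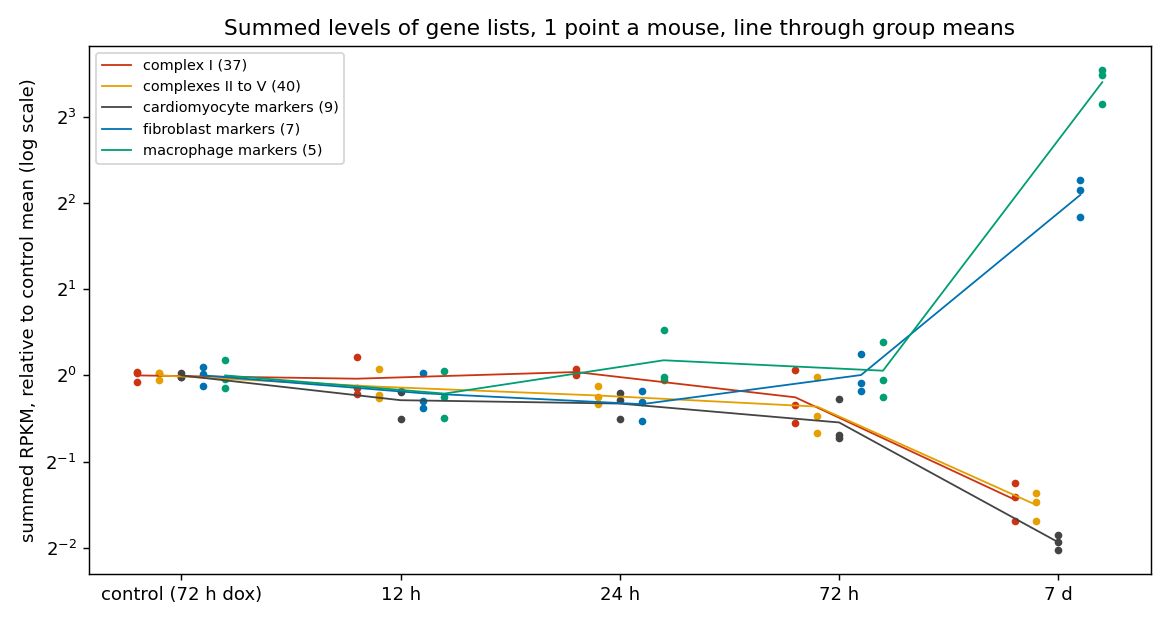
Summed RPKM of the 37 complex I genes, 40 genes of complexes II to V and 3 marker lists, relative to the control mean (log scale), 1 point per mouse with a line through group means. At 7 days the complex I sum is at 36.9% of control, the cardiomyocyte sum at 26.1% and the fibroblast sum at 426%.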

How the data were processed

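The authors deposited 1 table of RPKM values for 16042 genes in 20 columns. Per the submitters' processing notes TopHat and Bowtie were used with the mm9 build. The read strand, like the versions and the counting tool, was not given in the sources used here. Columns were assigned by the mouse numbers in the labels, and the columns of the 5 mice with 2 columns were averaged. Mouse numbers differ between groups, so no mice are paired, and nothing says how the mice relate to litters.

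Values were taken as log2(RPKM + 1). The 10868 genes whose mean over the 15 mice reached 1 RPKM were fitted in limma 3.58.1 (R 4.3.3, trended empirical Bayes, 10 residual and 7.12 prior degrees of freedom). The 15 mice in 5 groups shared 1 estimate of the spread. P values are two-sided and were adjusted by Benjamini and Hochberg over all genes tested within a comparison, with a threshold of 0.05. Fold changes of low genes are understated on this scale. Counts were not reconstructed.

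The genes and lists were chosen with earlier results of these data known. Values by mouse are given for the genes that passed against control (up to 6 per comparison, smallest p first), the highest and lowest mean level in each class, Ndufa4, Ndufa4l2 and Ndufab1, and the largest rise and fall at each time. For 1 gene of the 37, which is in the counts and medians, no values are reported here. Other values were chosen after they were seen. From other lists up to 4 genes are named per comparison, smallest p first, and Ecsit, Uqcrb, Nrf1, Gabpa, 1500032D16Rik, Ndufaf3 to Ndufaf7, Ryr2 and Nppa besides.

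Depth was estimated from the steps between low values of 85 olfactory genes. At those depths 1 of the 37 genes, Ndufa4l2, has a counting error over 5% in its thinnest determined column. Exon overlaps come from GENCODE vM1. Alternatives were quantile normalization, scaling by the median of ratios, a pseudocount of 0.1, no filter, a minimum mean of 5 RPKM, a GC correction (lowess span 0.3, 9672 genes), the first column of each mouse, robust empirical Bayes, a fixed effect for the column code plus a random one for mouse (16 columns, correlation 0.283), the compared groups alone, and leaving out each mouse. The fit was tested on simulated data.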

Additional observations from a re-analysis of the deposited data

Results flagged for a closer look

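For 33 of the 37 complex I genes the change from control differed between 72 h and 7 days by limma. All 33 were lower at 7 days. The share of all genes tested was 44.9%, with 22.3% lower and 22.6% higher. Between 24 and 72 h the change differed for 6 of the 37, against 10.2% of all genes tested. Ndufab1 was higher at 72 h, and Ndufs1, Ndufa1, Ndufa12, Ndufb3 and Ndufb5 were lower. Between 12 and 24 h the change differed for 1 of the 37, Ndufb3, higher at 24 h, against 3.92% of all genes tested. Each is a difference between 2 changes tested directly, and the control mice drop out of it. Groups of 3 mice are too small for a test of single outlying mice.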

How the results depend on the processing

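Over the alternatives 25 to 36 genes passed at 7 days against control, 29 to 34 against 72 h and 33 to 37 in the F test. The smaller counts depended on the setting. At 12 h 1 gene passed, against 0 with no filter, 0 with the first column of each mouse, 0 with the column code as a term, 2 after the GC correction, 7 in a fit of the compared groups alone, and 0 to 1 when 1 mouse was left out. At 24 h 4 passed, against 2 with no filter, 2 with the first column, 7 with median-of-ratios scaling, 7 after the GC correction and 0 to 7 when 1 mouse was left out, with 0 without A3259, A3280 or A3262 and 7 without A3254. At 72 h 1 passed, against 0 with the code as a term, 2 in the compared groups alone, and 0 to 8 when 1 mouse was left out, with 8 without A3278 and 0 without A3281. From 12 to 24 h 1 passed, against 2 after the GC correction, 0 in the compared groups alone, and 0 to 3 when 1 mouse was left out, with 0 without A3276 and 3 without A3254. From 24 to 72 h 6 passed, against 3 with no filter, 0 in the compared groups alone, and 2 to 6 when 1 mouse was left out, with 2 without A3262. The causes were not tested. Shares of all genes that passed also moved with the setting. At 24 h they were 5.38% higher and 10.6% lower in the fit used above. They were 8.5% and 6.85% with median-of-ratios scaling, and 4.76% and 4.6% after the GC correction. That correction gave 0.662% and 1.11% at 12 h, and 3.43% and 3.46% from 12 to 24 h. Shares for the other alternatives of these smaller counts are not given here. Median-of-ratios scaling moved the calls over all genes at 12 h from 57 higher and 1375 lower to 73 and 156. No paired analysis was possible because the mice carry no number that groups share. The column code as a term could not be run with the 24 h mice, nor for the F test. Low genes limit precision, since the thinnest column of Ndufa4l2 held about 75 reads.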
